A study of Drosophila melanogaster with 4 samples.

Results

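The 10 genes described here, CG12374, CG17633, CG8560, CG8562, CG8563, CG8564, CG4017, CG7025, CG18417 and CG14820, encode zinc carboxypeptidases and were taken by symbol from a table of 17510 genes of the adult Drosophila melanogaster intestine. CG12374 was selected on its own values, a level among the highest of all transcripts and a lower level in the RNAi libraries. Its difference between the genotypes is therefore given as a description with no test, and the other 9 genes are its relatives by family. Total RNA of dissected intestines, without Malpighian tubules and crop, was sequenced from flies with a transgenic RNAi stock (National Institute of Genetics) that targets CG5789 (libraries RNAi 1 and RNAi 2) and from wild-type flies (wild type 1 and wild type 2). CG5789, now named Cftr, is the gene that the study treats as the CFTR of the fly, CFTR being the chloride channel of human epithelia. The driver of the RNAi, the age of the flies and the number of flies pooled are not stated in the labels, and no driver-only, transgene-only or matched-background library is among the 4, so the RNAi and these other differences between the stocks cannot be told apart. The labels do not say whether libraries of the same genotype were made from different flies. The p-values therefore measure the spread between these libraries alone, which may be technical.

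Zinc carboxypeptidases cut single amino acids from the carboxyl end of peptides, with a zinc ion held in the active site. In the gut of insects and mammals they finish what the endopeptidases begin. Trypsins and chymotrypsin-like enzymes open proteins at internal bonds, and carboxypeptidases then trim the fragments, the A type at aromatic and aliphatic residues and the B type at the basic residues that trypsin leaves at fragment ends. Digestive members are usually made as inactive proenzymes with an amino-terminal propeptide and secreted into the gut lumen. The substrate type of the single fly genes is not assigned here, apart from CG18417, which has the synonym carboxypeptidase b1 in the RefSeq gene table.

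The libraries held 30252763 and 23674485 counts for RNAi 1 and 2 and 30537063 and 11294882 counts for wild type 1 and 2. The leading principal component of log2 expression, with 52.6% of the variance, placed RNAi 1 and wild type 1 (set 1) apart from RNAi 2 and wild type 2 (set 2), a split that the labels do not name. Cftr itself had 13.8 and 17.5 CPM (counts relative to the library total, scaled by the trimmed mean of M-values, TMM) in RNAi 1 and 2, against 13.8 and 43.4 CPM in wild type 1 and 2. The targeted gene was thus not lower in the libraries labelled RNAi 1 and RNAi 2 than in wild type 1. Its fitted log2 fold change was -0.86 (SE 0.57, edgeR unadjusted p = 0.176), and 0.20 without wild type 2. With the library set as a term in the model it was -0.65 (SE 0.35, edgeR adjusted p = 0.442). The RNAi level of Cftr was 1.01 times wild type in set 1 and 0.403 times in set 2. Among markers of the tissue, summed CPM of 3 enterocyte genes (Myo31DF, nub and Npc1b) was 533 and 1174 in RNAi 1 and 2 against 324 and 645 in wild type 1 and 2, and none of the 3 was at 0. Npc1b, the sterol uptake gene, made up most of that difference, with 283 and 514 CPM in RNAi 1 and 2 against 90.9 and 145 CPM in wild type 1 and 2, while Myo31DF had 85.5 and 260.5 CPM in RNAi 1 and 2 against 86.5 and 227 CPM in wild type 1 and 2. Summed CPM of 3 visceral muscle genes was 202 and 573 in RNAi 1 and 2, against 279 and 848 in wild type 1 and 2. Summed CPM of 3 Malpighian tubule markers was 59.9 and 65.2 in RNAi 1 and 2, against 64.3 and 60.7 in wild type 1 and 2, most of it from the potassium channel gene Irk2, while Uro had at most 0.900 CPM in any library. Summed CPM of 4 fat body markers was 120 and 281 in RNAi 1 and 2, against 119 and 150 in wild type 1 and 2. Of 5 enteroendocrine genes, 2 (Tk and NPF) were lower in both RNAi libraries than in both wild-type libraries, against 12.2% of all tested genes. Another 2 (pros and AstA) were higher in both, against 1161 of all 9637 tested genes. Some of these gaps were small. Tk had 74.7 CPM in RNAi 2 and 76.6 CPM in wild type 2, and pros had 5.10 CPM in RNAi 1 and 4.85 CPM in wild type 2. The enterocyte marker Mex1 and the stem cell and enteroblast markers esg and Dl were also listed but matched no gene. From the stem cell and enteroblast list only kay matched, with 119 and 266 CPM in RNAi 1 and 2, against 106 and 232 CPM in wild type 1 and 2. Summed CPM of 2 copper cell genes (lab and Vha100-4) was 114 and 198 in RNAi 1 and 2, against 169 and 195 in wild type 1 and 2. The part of these marker levels in the results below was not tested, and in RNA from whole intestines fewer cells that express a gene and less RNA per cell cannot be told apart.

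The 10 genes fell into 7 that were abundant and 3 that were near the limit of counting. CG12374, CG17633, CG8562, CG8560, CG14820, CG7025 and CG18417 each averaged over 100 CPM, as did 1300 of the 9637 genes that passed the count filter. CG8563, CG4017 and CG8564 stayed below 1 CPM in all 4 libraries. Together the 10 genes took 1.64% and 3.70% of all counts in RNAi 1 and 2, against 4.62% and 7.58% in wild type 1 and 2. CG12374 alone accounted for 0.885% and 2.94% in the RNAi libraries and for 3.06% and 6.45% in the wild-type libraries. Without CG12374 the other 9 took 0.752% and 0.756% in RNAi 1 and 2, against 1.56% and 1.13% in wild type 1 and 2. Without CG12374 both RNAi libraries gave smaller shares than both wild-type libraries. With it they did so too, but CG12374 was chosen as abundant and lower in RNAi. The lower share of all 10 genes was therefore largely set by that choice.

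**Figure D1:**
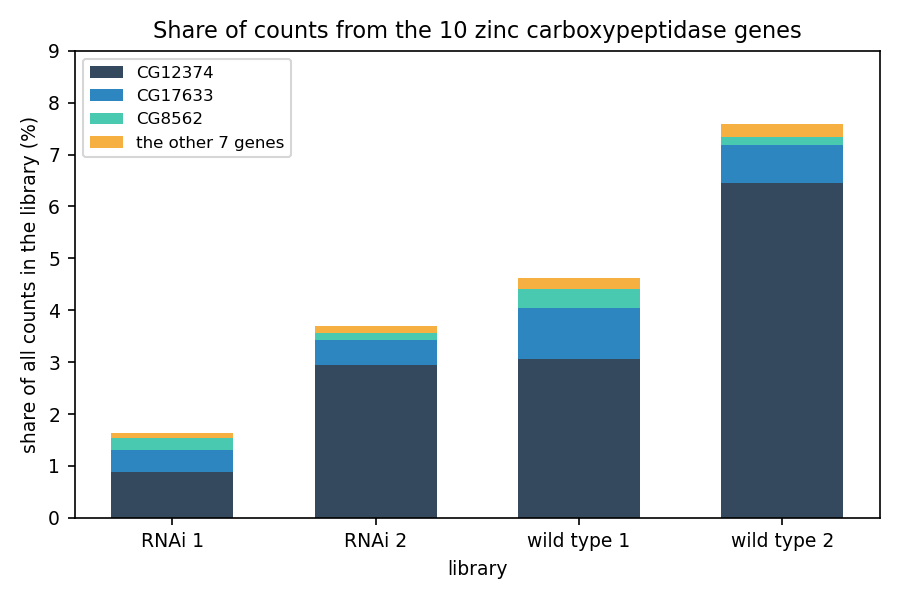
Share of all counts in each library, in percent, taken by CG12374, CG17633, CG8562 and the other 7 zinc carboxypeptidase genes (stacked bars, 1 bar per library). The bars reach 1.64% and 3.70% in RNAi 1 and 2, against 4.62% and 7.58% in wild type 1 and 2, and CG12374 is the largest segment in each. CG12374 was chosen for its lower level in RNAi.

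CG12374 (FBgn0033774) lies on chromosome arm 2R from 12762113 to 12763825 on the plus strand of the BDGP6 assembly, with 5 coding exons and a predicted protein of 422 residues. Its level was 8581 and 28414 CPM in RNAi 1 and 2, and 32354 and 65400 CPM in wild type 1 and 2. It ranked 9th and 2nd by CPM among all genes in RNAi 1 and 2, and 2nd and 1st in wild type 1 and 2. The groups did not overlap, but RNAi 2 came close to wild type 1, and set 2 was higher than set 1 in both genotypes, 3.31-fold in RNAi and 2.02-fold in wild type. The level averaged 18498 ± 14024 CPM in the RNAi libraries and 48877 ± 23367 CPM in the wild-type libraries (SD, n = 2 each), a fitted log2 fold change of -1.40 (SE 0.63). Leaving out RNAi 2 gave -2.56, leaving out RNAi 1 gave -0.78, leaving out wild type 1 gave -1.83 and leaving out wild type 2 gave -0.77, so the size of the difference, which chose the gene, depended on the library. Within sets the RNAi level was 0.265 times wild type in set 1 and 0.434 times in set 2.

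**Figure D2:**
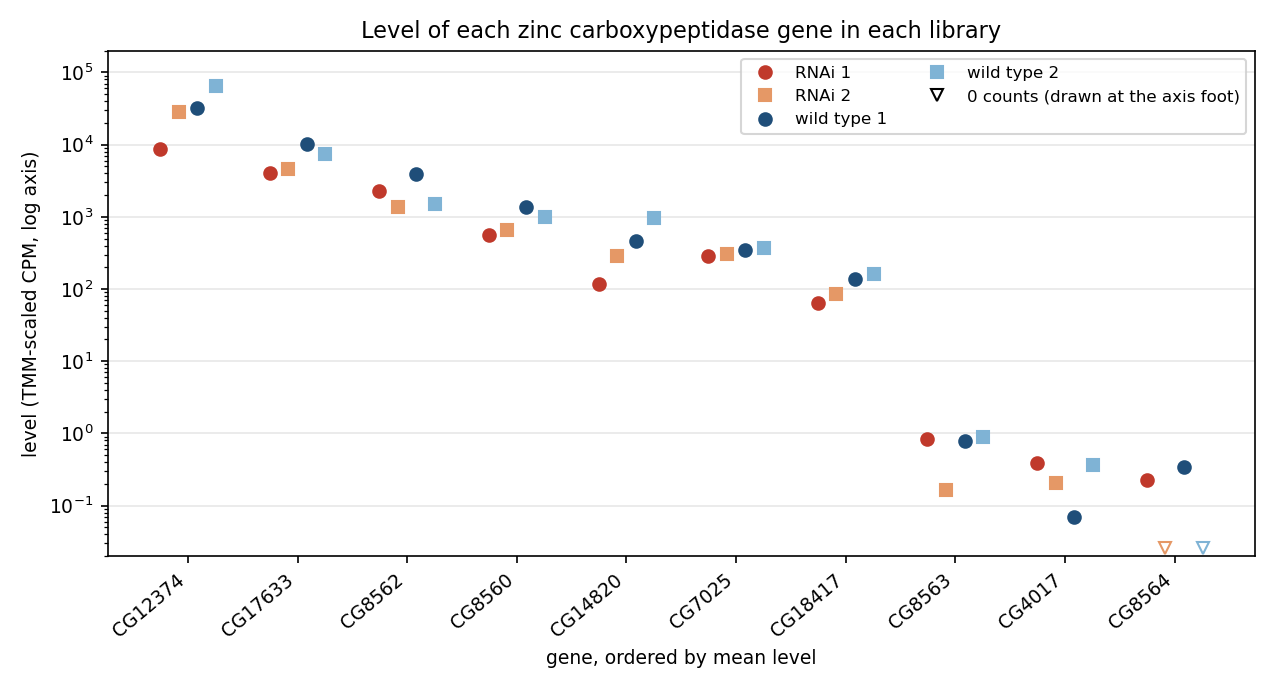
TMM-scaled CPM on a log axis for each of the 10 genes, ordered by mean level, with 1 point per library (RNAi red shades, wild type blue shades, circles for set 1 and squares for set 2, open triangles for 0 counts). The 7 abundant genes lie between 63.3 and 65400 CPM and the other 3 below 1 CPM.

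Of the other 9 genes, 7 passed the count filter, and none of the 7 was called by the quasi-likelihood test of edgeR (adjusted p under 0.05 over all 9637 genes), where 0.0208% of genes were called lower and 0.104% higher. At an unadjusted p under 0.05 there were 4 of the 7, CG14820, CG17633, CG18417 and CG8560, all lower in RNAi, against 1.66% of all tested genes. DESeq2 and limma-voom called none of the 7, against 92 and 12 of all 9637 tested genes. With the library set as a term in the edgeR model the same 4 genes fell, against 3.65% of all tested genes called lower, and none of the 7 rose, against 3.45% called higher. Among the 1300 abundant genes 5.38% were called lower with the set term. Since the counts themselves defined the sets, and a single residual degree of freedom remained, p-values with the set term can be too small. Both RNAi libraries lay below both wild-type libraries in 5 of the 7, which held for 12.2% of all tested genes and for 13.8% of the 1300 abundant ones. The fitted log2 fold change was below 0 in each of the 7 (median -0.98), as in 49.3% of all tested genes, whose median was 0.006. That of CG8562 was 0.25 without wild type 1.

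CG14820 (FBgn0035718), on arm 3L from 6932926 to 6934824 on the plus strand, had the largest fitted difference of the 10. It had 116 and 290 CPM in RNAi 1 and 2, against 466 and 955 CPM in wild type 1 and 2. The groups did not overlap, and as for CG12374 the set 2 library was higher in both genotypes, 2.49-fold in RNAi and 2.05-fold in wild type. The log2 fold change was -1.80 (SE 0.59, edgeR adjusted p = 0.843) without the set term and -1.86 (SE 0.20, edgeR adjusted p = 5.30e-09) with it. Without a count filter the adjusted p was 0.0433. The RNAi level was 0.250 times wild type in set 1 and 0.304 times in set 2, and the log2 fold change lay between -2.65 and -1.16 with any library left out.

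CG17633 (FBgn0032144) was the second most abundant member, and its single coding exon encodes a predicted protein of 430 residues. It lies on arm 2L from 9769060 to 9770409 on the plus strand, wholly within the span of ppk18 on the other strand, which had between 11 and 40 counts per library. CG17633 had 4004 and 4607 CPM in RNAi 1 and 2, against 10260 and 7468 CPM in wild type 1 and 2. The RNAi libraries were close to each other and below both wild-type libraries. The log2 fold change was -1.04 (SE 0.39, edgeR adjusted p = 1) without the set term and -1.03 (SE 0.24, edgeR adjusted p = 0.00289) with it. The RNAi level was 0.390 times wild type in set 1 and 0.617 times in set 2.

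CG8560 (FBgn0035781), on arm 3L from 7402332 to 7404181 on the minus strand, had a like profile at a lower level. It had 567 and 649 CPM in RNAi 1 and 2, against 1383 and 1008 CPM in wild type 1 and 2, with both RNAi libraries lower. Its log2 fold change was -0.98 (SE 0.40, edgeR adjusted p = 1), and -0.96 (SE 0.21, edgeR adjusted p = 0.00178) with the set term. In both CG8560 and CG17633 wild type 2 was 0.73 times wild type 1, while RNAi 2 was 1.14 times RNAi 1 for CG8560 and 1.15 times for CG17633. This was unlike CG12374 and CG14820, where set 2 was the higher in both genotypes.

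CG18417 (FBgn0035780), on arm 3L from 7400070 to 7401671 on the plus strand, was the least abundant of the 7 expressed members. It had 63.3 and 84.3 CPM in RNAi 1 and 2, against 136 and 163 CPM in wild type 1 and 2, with no overlap. The log2 fold change was -1.02 (SE 0.38, edgeR adjusted p = 1), and -1.03 (SE 0.17, edgeR adjusted p = 5.69e-05) with the set term. Its ratio of RNAi to wild type was alike in both sets, 0.464 in set 1 and 0.517 in set 2.

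The remaining 2 abundant genes did not pass in either fit. CG7025 (FBgn0031930), on arm 2L from 7691109 to 7692683 on the minus strand, had 284 and 307 CPM in RNAi 1 and 2, against 349 and 371 CPM in wild type 1 and 2. The RNAi libraries were lower by a small amount, and the log2 fold change was -0.28 (SE 0.37, edgeR adjusted p = 1), or -0.29 (SE 0.18, edgeR adjusted p = 0.461) with the set term. CG8562 (FBgn0035779), on arm 3L from 7398285 to 7399912 on the plus strand, had 2254 and 1364 CPM in RNAi 1 and 2, against 3900 and 1490 CPM in wild type 1 and 2. Here the groups overlapped and set 2 was the lower one, at 0.605 times set 1 in RNAi and 0.382 times in wild type. The log2 fold change of CG8562 was -0.57 (SE 0.55, edgeR adjusted p = 1), or -0.46 (SE 0.22, edgeR adjusted p = 0.262) with the set term.

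**Figure D3:**
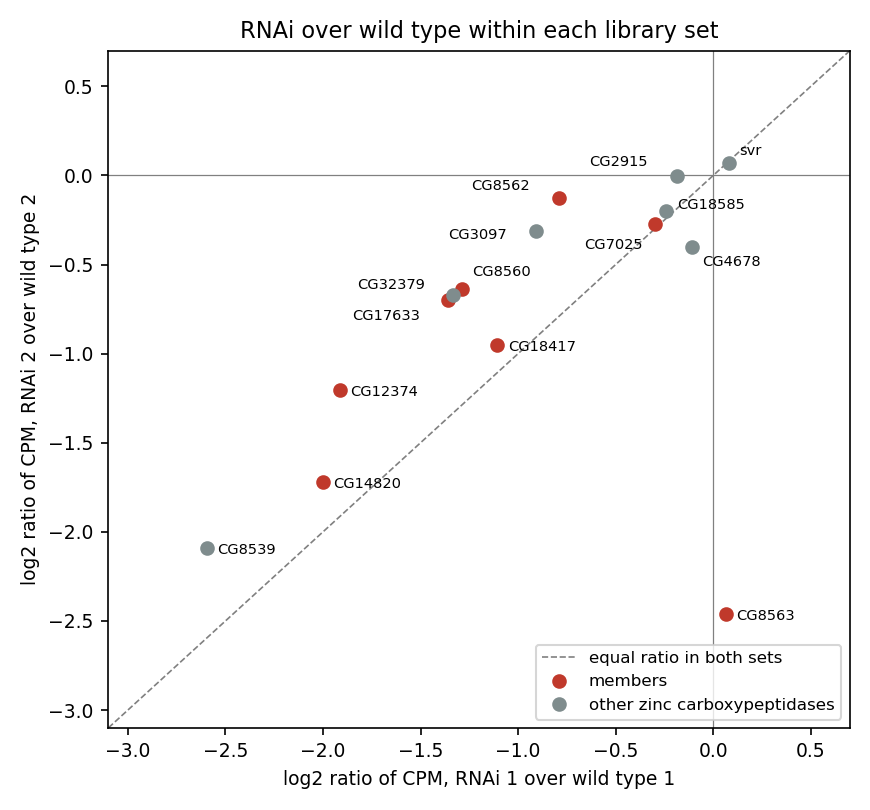
Log2 ratio of CPM, RNAi over wild type, within set 1 (horizontal axis) and within set 2 (vertical axis), for the 8 members and 7 other zinc carboxypeptidases that passed the count filter (1 point per gene, dashed line for equal ratios). CG14820 lies at -2.0 and -1.72, CG12374 at -1.91 and -1.20, and CG8562 at -0.79 and -0.13, while CG8563 at 0.07 and -2.46 rests on few counts.

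The other 3 genes gave few counts. CG8563 (FBgn0035777) had 26 and 4 counts in RNAi 1 and 2, against 23 and 10 in wild type 1 and 2. Its ratio of summed counts, scaled by library size, was 0.653 with a 95% exact interval of 0.385 to 1.10, and its log2 fold change was -0.72 (SE 0.84, edgeR adjusted p = 1). Within sets its ratio was 1.05 (0.574 to 1.92) in set 1 and 0.182 (0.0416 to 0.630) in set 2. CG4017 (FBgn0032143) had 12 and 5 counts in RNAi 1 and 2, against 2 and 4 in wild type 1 and 2, which gave a ratio of 2.04 with an interval of 0.766 to 6.31, and did not pass the filter. Within sets its ratio was 5.56 (1.24 to 51.1) in set 1 and 0.568 (0.122 to 2.86) in set 2, where the interval includes 1. CG4017 also lies wholly within the span of ppk18 on the other strand, with 32 and 40 counts in RNAi 1 and 2, against 22 and 11 in wild type 1 and 2. Whether reads were counted by strand is not stated, so reads of the 2 genes may not be told apart. CG8564 (FBgn0035776) had 7 and 0 counts in RNAi 1 and 2, against 10 and 0 in wild type 1 and 2, and did not pass either. A count of 0 allows up to 3 counts, which is 0.122 CPM in RNAi 2 and 0.269 CPM in wild type 2. These intervals and limits cover counting error only.

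Genes that lie side by side had levels of the same order in some cases and far apart in others. CG8564, CG8563, CG8562, CG18417 and CG8560 lie in 1 array of 18534 bp on arm 3L, in that order, with the further zinc carboxypeptidase CG32379 between CG8563 and CG8562, and the annotation has no other protein-coding gene in it. CG8564 spans 7385648 to 7387914 on the minus strand and CG8563 spans 7390742 to 7396013 on the plus strand. Per kilobase of exon (RPKM), the mean level in RNAi and in wild type was 0.0575 and 0.0887 for CG8564, 0.235 and 0.399 for CG8563, 6.61 and 12.4 for CG32379, 1220.0 and 1817 for CG8562, 49.8 and 101 for CG18417, and 388 and 764 for CG8560. CG8562 thus had 185 times the level of CG32379 in RNAi and 147 times in wild type, although the genes are 76 bp apart. CG4017, on arm 2L from 9767058 to 9768727 on the plus strand, ends 332 bp before CG17633, and the pair had mean levels of 0.182 and 3189 RPKM in RNAi and of 0.132 and 6566 RPKM in wild type. CG7025 lies 47 bp from a further family member, CG18585, and this pair had levels of the same order, 219 and 401 RPKM in RNAi and 267 and 468 RPKM in wild type. CG18585 overlaps Myo28B1 on the other strand by 149 bp, where reads of the 2 genes may not be told apart. Myo28B1 had 2579 and 6578 counts in RNAi 1 and 2, against 1452 and 1668 in wild type 1 and 2. The predicted proteins of the 10 members have between 416 and 520 residues, CG8564 being the longest, and the number of coding exons ranges from 1 to 5.

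**Figure D4:**
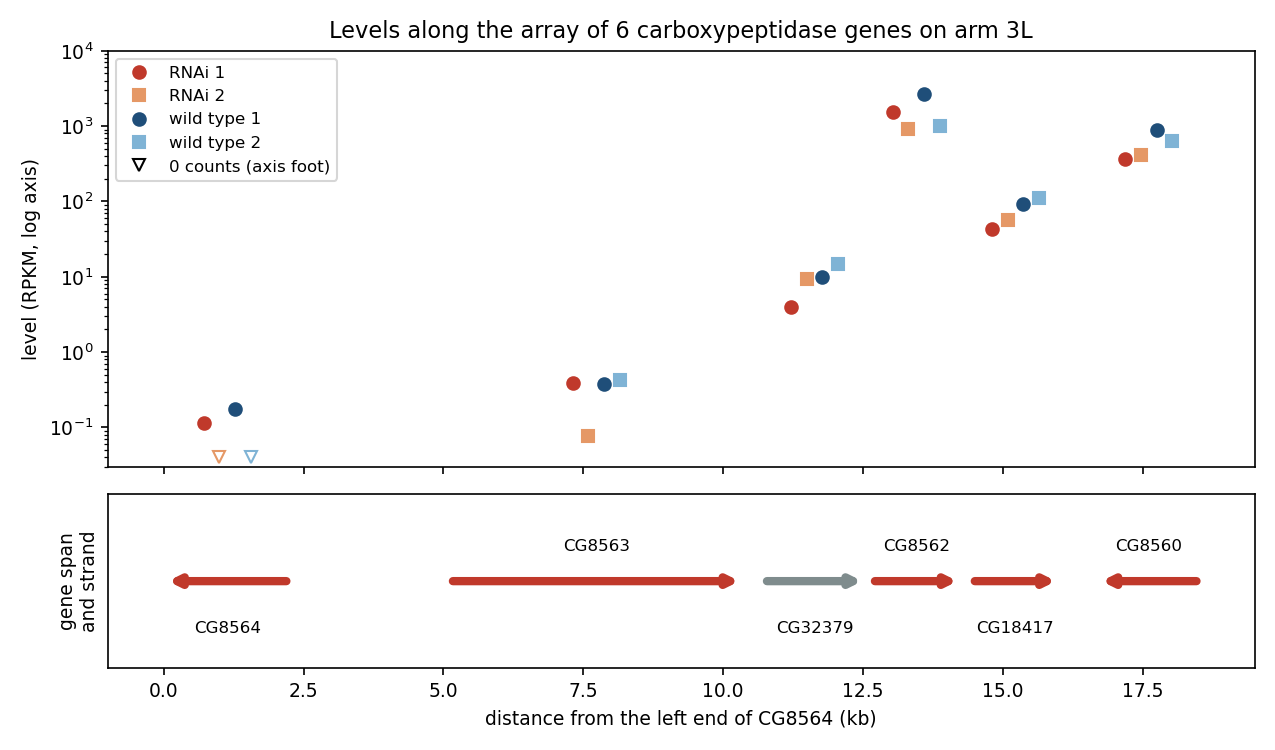
RPKM on a log axis for the 6 zinc carboxypeptidase genes of the 3L array (upper panel, 1 point per library, RNAi left of wild type, open triangles for 0 counts) above the span and strand of each gene, in kb from the left end of CG8564 (lower panel, members red, CG32379 grey). The left pair stays below 1 RPKM, while CG8562 reaches between 920 and 2630 RPKM.

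Outside the 10 members, 13 further names of the zinc carboxypeptidase family were listed, of which 11 matched a gene in the table and 7 passed the count filter. None of the 7 passed without the set term in edgeR, where 12 of all 9637 tested genes were called. In that fit 1 of the 7 had an unadjusted p under 0.05, against 369 of all tested genes. DESeq2 called 1 of the 7, against 92 of all tested genes. In both cases the gene was CG8539. With the set term 3 of the 7 fell, CG8539, CG32379 and CG3097, and none rose, against 3.65% and 3.45% of all tested genes called lower and higher. CG8539, on arm 3L 93029 bp from the end of the array, had the largest fitted difference of the family among genes that passed the filter, at a low level. It had 1.54 and 1.83 CPM in RNAi 1 and 2, against 9.31 and 7.81 CPM in wild type 1 and 2, with no overlap. The log2 fold change was -2.35 (SE 0.39) and its edgeR adjusted p was 0.140, or 9.31e-08 when the set was a term. It lay between -2.52 and -2.22 with any library left out.

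CG32379, inside the array, had 4.87 and 11.5 CPM in RNAi 1 and 2, against 12.3 and 18.3 CPM in wild type 1 and 2, and a log2 fold change of -1.0 (SE 0.20, edgeR adjusted p = 9.06e-04) with the set term. CG3097 had 30.3 and 38.2 CPM in RNAi 1 and 2, against 56.9 and 47.4 CPM in wild type 1 and 2, and a log2 fold change of -0.62 (SE 0.17, edgeR adjusted p = 0.0212) with the set term. Without it the adjusted p was 1 for CG32379 and CG3097. The 3 most abundant of the list were CG18585, svr and CG3097, and CG18585 and svr passed in neither fit. CG18585 had 610.0 and 532 CPM in RNAi 1 and 2, against 721 and 612 CPM in wild type 1 and 2. The svr gene encodes carboxypeptidase D, a membrane-bound enzyme of the secretory pathway that trims peptides inside cells, and had 69.1 and 124 CPM in RNAi 1 and 2, against 65.3 and 118 CPM in wild type 1 and 2. The median log2 fold change of the 7 was -0.24. Both RNAi libraries lay below both wild-type libraries in 5 of these 7, against 12.2% of all tested genes. They lay above both in 0 of the 7, against 1161 of all 9637 tested genes. The gap was small for CG18585, with 610.0 CPM in RNAi 1 and 612 CPM in wild type 2. It was also small for CG4678, with 1.06 CPM in RNAi 1 and 1.08 CPM in wild type 2, from 33 and 12 counts.

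**Figure D5:**
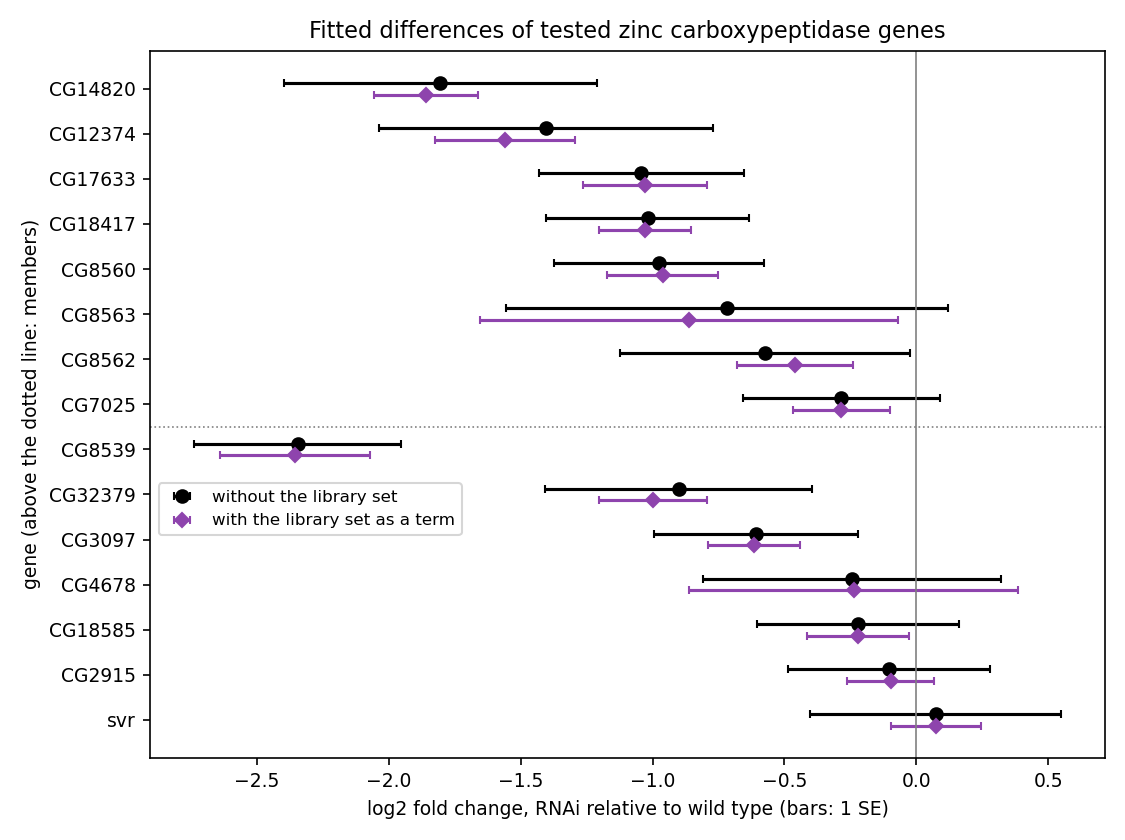
Fitted log2 fold change of RNAi over wild type, with bars of 1 SE, for the 8 members that passed the count filter (above the dotted line) and 7 other zinc carboxypeptidases (below it), without the library set (black) and with it as a term (purple). CG14820 and CG8539 lie farthest to the left of their groups at -1.80 and -2.35 without the set, and svr lies at 0.073.

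Other classes of digestive peptidase were set beside these genes by their counts and medians, to be read against the 3.65% of all tested genes that were lower and the 3.45% that were higher with the set term. Of 12 tested trypsins, the gut endopeptidases that cut after lysine and arginine, 1 fell and none rose with the set term, and the median log2 fold change without it was -0.40. Of 16 tested Jonah proteases, a family of gut serine endopeptidases, 7 fell and 3 rose with the set term, with a median of -0.47. Of 12 tested membrane alanyl aminopeptidases, which trim peptides from the amino end, 1 fell and none rose, with a median of -0.028. Without the set term 1 gene of these 3 lists was called, a Jonah protease that was lower (Jon44E, named after its values were seen). An unadjusted p under 0.05 was found, without the set term, for 8 of the 16 Jonah proteases and 0 of the trypsins and aminopeptidases. This held for 369 of all 9637 tested genes. Both RNAi libraries lay below both wild-type libraries in 8 Jonah proteases, 3 trypsins and 1 aminopeptidase, against 12.2% of all tested genes. They lay above in 5, 0 and 2 of these, against 1161 of the 9637 genes. The most abundant trypsin, alphaTry, had 24217 and 18990 CPM in RNAi 1 and 2, against 32980 and 27424 CPM in wild type 1 and 2, and the next, betaTry, had 8333 and 6938 CPM in RNAi 1 and 2, against 8324 and 8040 CPM in wild type 1 and 2. Reads of near-identical trypsin copies may be shared among them. Jon65Aiv and Jon65Aiii were the most abundant Jonah genes, with 12828 and 14459 CPM in RNAi 1 and 2 against 14388 and 19963 CPM in wild type 1 and 2 for Jon65Aiv, and 7634 and 10582 CPM in RNAi 1 and 2 against 10767 and 17057 CPM in wild type 1 and 2 for Jon65Aiii. Among the aminopeptidases CG31343 had 1941 and 3788 CPM in RNAi 1 and 2, against 2569 and 4198 CPM in wild type 1 and 2, and CG31198 had 1205 and 2794 CPM in RNAi 1 and 2, against 1478 and 2683 CPM in wild type 1 and 2. None of these 6 genes passed in either fit.

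Over the 4 libraries the genes whose profile lay nearest to that of CG12374 were CG14820, CG11912, CG3036, Jon65Ai and CG8774, in that order. Nearness was the Euclidean distance between log2 CPM profiles centred on each gene's mean, over the 1299 other tested genes that averaged 100 CPM or more, and the distances were 0.417, 0.588, 0.617, 0.635 and 0.684. The nearest of all was thus a member of the same family. CG18417 came 24th, CG17633 134th, CG8560 147th, CG7025 322nd and CG8562 1057th. These distances rest on 4 libraries and on the same difference that chose CG12374. CG8774 is on the list of membrane alanyl aminopeptidases, and had 125 and 324 CPM in RNAi 1 and 2, against 297 and 509 CPM in wild type 1 and 2.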

How the data were processed

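The values were raw read counts per gene, deposited by the authors with 1 column per library and no normalization. FastQC, STAR and BDGP6 are named in the submitters' processing notes. How reads were counted, with which annotation and whether by strand, was not stated in any source used here, so the split of reads between overlapping genes or near-identical copies is unknown. Of the identifiers, 17405 matched a symbol and 105 did not. Positions and exon lengths came from an Ensembl BDGP6 annotation.

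The filterByExpr function of edgeR 4.0.16 (R 4.3.3) kept 9637 genes, which were scaled by TMM and tested by the quasi-likelihood test with robust estimation over all 4 libraries, with Benjamini-Hochberg adjustment over all genes tested and a threshold of 0.05. The SE is the log2 fold change divided by the square root of the F statistic. Log2 CPM used a prior count of 2, and libraries were numbered in order of deposit. Alternatives were RLE factors, library size alone, no count filter (at least 1 count), a minimum mean of 5 CPM, DESeq2 1.42.0, limma-voom (limma 3.58.1), each library left out, the library set as a term, and the 20 most abundant genes left out of totals and scaling. The fits were also run on simulated counts with a dispersion common to all genes. No outcome is given here, so the power to call differences of the size seen in the members is not stated. The members, lists and alternatives were chosen with earlier results of these data known. Beyond the members, genes named are carboxypeptidases called in either fit or among the 3 most abundant, the 2 most abundant of other lists, and the 5 genes nearest in profile to CG12374. Also named are Cftr, markers of the tissue, genes that overlap carboxypeptidases, and, after their values were seen, Jon44E and CG4678.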

Additional observations from a re-analysis of the deposited data

How the results depend on the processing

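Without the set term, 12 of 9637 genes were called, against 1 with a minimum mean of 5 CPM, 92 with DESeq2, 120 without a count filter, 684 with the set term and between 58 and 120 with 1 library left out. The number of tested members called, leaving CG12374 aside, was 0, against 1 without a count filter and 4 with the set term. It was 0 with RLE factors, library size alone, the 5 CPM minimum, DESeq2, limma-voom, each library left out and the abundant genes left out. Of the other zinc carboxypeptidases 0 were called, against 1 without a count filter, 1 with DESeq2, 3 with the set term and between 0 and 1 with 1 library left out, which was CG8539 without RNAi 2 or wild type 2. Of 95 single-gene values under an alternative, 1 changed sign, CG8562, which ranged between -1.11 and 0.25 with 1 library left out, above 0 without wild type 1; the cause was not tested. Where 1 library of a genotype remained, it was assumed to vary like the others. With library size alone the median log2 fold change of all genes was 0.11, against 0.006 with TMM, and CG12374 was then at -1.31. No paired analysis was possible because the labels give no replicate number shared between the genotypes; the set term pairs libraries by the counts alone. Depth limits CG8563, CG4017 and CG8564, whose counts summed over each genotype gave ratios with intervals that include 1.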
